A study of Rattus norvegicus with 4 samples.

Results

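The genes described here are the transforming growth factor beta (TGF-beta) and bone morphogenetic protein (BMP) family, with its antagonists, receptors and Smad proteins, in a map of histone H3 trimethylated at lysine 27 (H3K27me3) in rat sciatic nerve. They were chosen by name alone from the genes that the deposited peak list names as nearest to a peak. These were genes starting with Bmp, Gdf, Tgfb, Lefty, Grem, Acvr or Smad and a digit, together with Inhba, Inhbb, Nodal, Nog, Chrd, Fst, Bmpr1a, Bmpr1b and Bmpr2. The rule found 45 of the 10647 genes that the list names. They were 22 ligands, 7 antagonists, 7 receptors and 7 Smads, and 2 genes that match by name alone, Bmp1, a secreted protease, and Tgfb1i1, a focal adhesion adaptor.

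Sciatic nerves of male Sprague Dawley rats, at postnatal day 42, gave the chromatin. They were taken from the sham-operated limb, where only the skin had been incised, 1 day after the opposite sciatic nerve had been cut, so these animals all carried an injury on the other side. Chromatin was cut with micrococcal nuclease, and the groups were 2 libraries immunoprecipitated with an H3K27me3 antibody and 2 libraries of the matching input. The deposited list gives each H3K27me3 peak a single pooled value, not a value for each library. The spread between replicates is therefore not known, and no test across genes was made.

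H3K27me3 is placed by Polycomb repressive complex PRC2 and lies over promoters of silenced developmental genes. Ligands of this family bind a pair of type II and type I receptor kinases, which phosphorylate receptor-regulated Smads, and these enter the nucleus with Smad4. Antagonists such as Noggin, Chordin, Gremlin and Follistatin bind the ligands outside the cell, and the inhibitory Smads Smad6 and Smad7 act inside it. In peripheral nerve the pathway is known from the growth and survival of developing Schwann cells, from the nerve sheath and from the response to injury.

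Schwann cells share the nerve with fibroblasts, the perineurium, vessels and leukocytes. A peak may come from a part of them, and a mark in few cells cannot be told apart from a weak mark in many. Among markers of these cells, 5 of 10 Schwann cell genes, 3 of 7 fibroblast and perineurial genes, 3 of 7 endothelial and mural genes and 2 of 6 leukocyte genes had a promoter peak, against 7 of 7 genes of neurons, whose nuclei lie outside the nerve. Over all genes that the list names, 38.4% had a promoter peak. Over all protein-coding genes, named by a peak or not, the share was 16.1%. The counts of the resident cell types lie near 38.4% and above 16.1%. How many of these markers a peak names is not given here, so which share is their background is not settled.

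Most ligands and every antagonist of the family carried H3K27me3 at the promoter, and most receptors and Smads did not. A gene was counted where the edge of a peak assigned to it lay within 1000 bp of its transcription start site (TSS). Of the 45 genes 26 had such a promoter peak (57.8%, 95% Wilson interval 43.3 to 71.0%), against 38.4% of all genes that the peak list names. The count was 17 of 22 ligands (77.3%, 56.6 to 89.9%) and 7 of 7 antagonists (100%, 64.6 to 100%). It was 1 of 7 receptors and 1 of 7 Smads (14.3%, 2.57 to 51.3% for each). The ligands and antagonists thus lay above this background of named genes and the receptors and Smads below it. The intervals of receptors and Smads reach over it. Neither Bmp1 nor Tgfb1i1 had a promoter peak. A gene enters these shares only if some peak names it. Over all protein-coding genes of the reference table, named or not, 26 of 53 family genes had a promoter peak, against 16.1% of all. The 14.3% of receptors and Smads, which leaves out the unnamed Acvr1b and Smad9, is near this 16.1%. Their place below the background therefore holds only against named genes.

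The peaks of ligands and antagonists also had high scores. Scores were given by the authors without a stated scale, and serve here only to describe and rank peaks within the list. Of the 45 genes 24 had a promoter peak in the top 25% of all peak scores, at or above 9.9, against 28.1% of all genes that the list names. They were 16 ligands, 7 antagonists and 1 receptor. Most genes with any promoter peak reach this limit, 2987 of 4088, so this count largely follows the count of promoter peaks. The highest promoter peak per gene had a median score of 128.1 in the 17 ligands and 107.5 in the 7 antagonists, against 40.6 in all 4088 genes with a promoter peak. The widest had a median of 3152 bp in ligands and 2698 bp in antagonists, against 1341 bp in all of these genes. Per kb of the highest promoter peak, the median scores were closer, 38.6 in ligands and 42.8 in antagonists, against 30.0. As single promoter peaks, without joining neighbours, 6 of the 26 family genes had a promoter peak of at least 5000 bp, against 567 of the 4088 genes (13.9%), and 0 had one of at least 10000 bp, against 188 (4.60%).

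**Figure D1:**
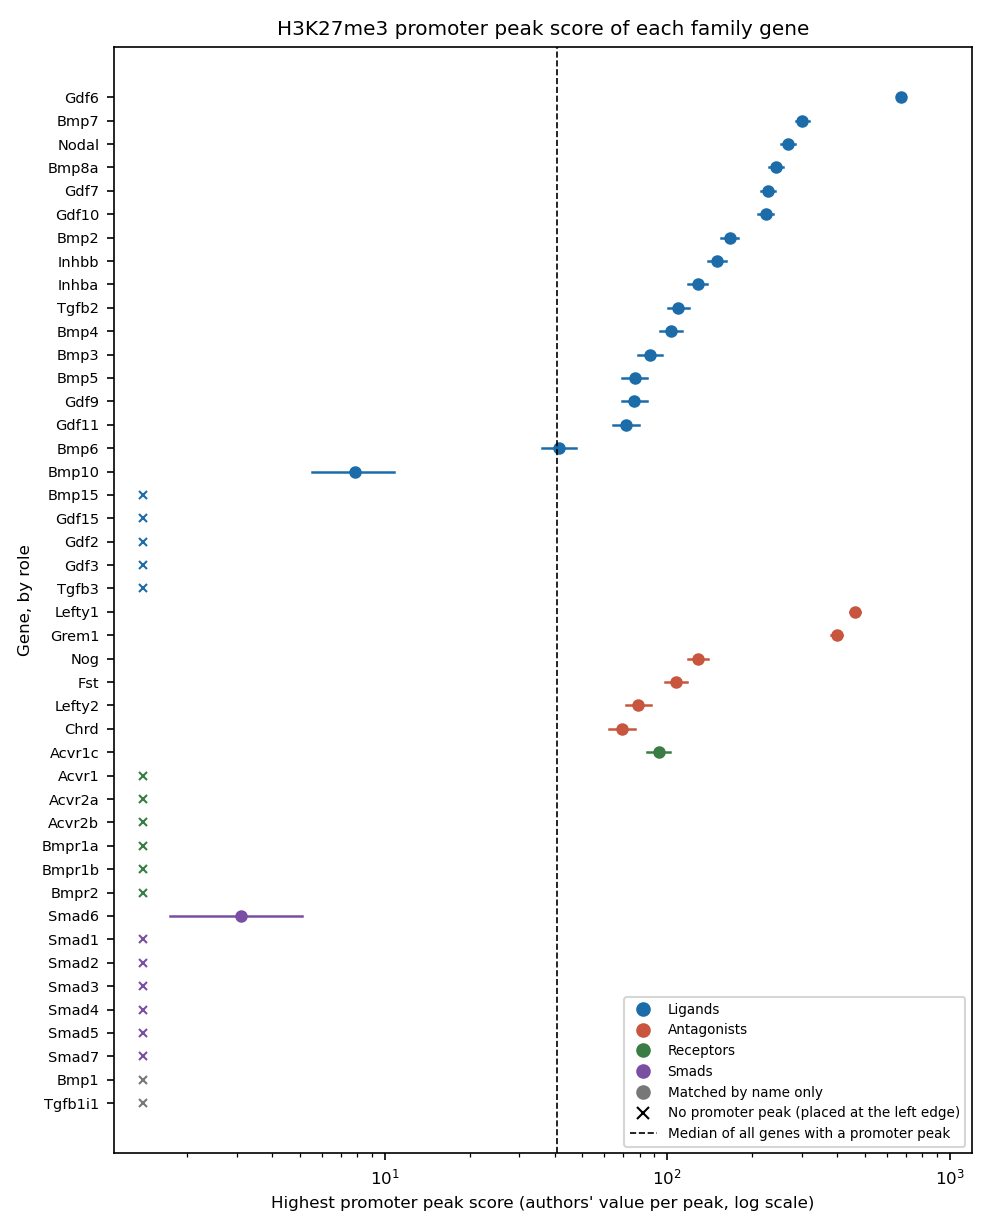
Highest promoter peak score of family genes (log scale, bars are 95% counting intervals), grouped by role, with genes without a promoter peak as crosses placed at the left edge. Ligands and antagonists lie mostly right of the dashed median of 40.6 over all genes with a promoter peak, while Acvr1c and Smad6 are the only receptor and Smad with a point.

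Promoter sequences of 6 genes show what kind of DNA lies under or beside these peaks. They were taken from the RefSeq promoter table (assembly GRCr8, from 250 bases before to 50 after the TSS), which holds a promoter for 33 of the 45 genes. The peaks themselves are on the older assembly rn5, so a peak and a sequence are matched by gene and not by coordinates. Capitals mark each CG dinucleotide (CpG), the feature that CpG islands are rich in. The first pair, Grem1 and Nodal, are the highest-scoring antagonist and ligand with a sequence and have a peak over the TSS. The next pair, Inhbb and Acvr1c, have peaks on both sides of a gap at the TSS. The last pair, the receptor gene Acvr2b and the Smad gene Smad1, have no promoter peak.
Grem1 (GRCr8, chr3:120978270-120978569, minus strand): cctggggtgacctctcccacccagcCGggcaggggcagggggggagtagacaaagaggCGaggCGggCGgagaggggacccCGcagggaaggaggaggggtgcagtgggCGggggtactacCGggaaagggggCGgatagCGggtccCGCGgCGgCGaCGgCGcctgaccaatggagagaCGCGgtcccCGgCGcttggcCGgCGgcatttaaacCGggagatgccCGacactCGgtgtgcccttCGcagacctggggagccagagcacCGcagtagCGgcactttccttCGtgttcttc
Nodal (GRCr8, chr20:29911008-29911307, plus strand): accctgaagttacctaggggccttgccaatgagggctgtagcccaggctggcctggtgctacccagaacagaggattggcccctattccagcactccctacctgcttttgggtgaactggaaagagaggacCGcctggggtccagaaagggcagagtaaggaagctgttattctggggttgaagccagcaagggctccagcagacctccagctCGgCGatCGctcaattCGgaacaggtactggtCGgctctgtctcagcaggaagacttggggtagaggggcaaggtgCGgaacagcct
Inhbb (GRCr8, chr13:33089324-33089623, minus strand): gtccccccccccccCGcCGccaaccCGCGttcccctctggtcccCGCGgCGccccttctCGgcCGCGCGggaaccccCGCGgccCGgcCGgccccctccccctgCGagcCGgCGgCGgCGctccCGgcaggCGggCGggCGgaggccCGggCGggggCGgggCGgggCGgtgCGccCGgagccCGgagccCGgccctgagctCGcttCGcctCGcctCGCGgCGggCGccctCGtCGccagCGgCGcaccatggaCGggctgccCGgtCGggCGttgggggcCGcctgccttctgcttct
Acvr1c (GRCr8, chr3:63301105-63301404, minus strand): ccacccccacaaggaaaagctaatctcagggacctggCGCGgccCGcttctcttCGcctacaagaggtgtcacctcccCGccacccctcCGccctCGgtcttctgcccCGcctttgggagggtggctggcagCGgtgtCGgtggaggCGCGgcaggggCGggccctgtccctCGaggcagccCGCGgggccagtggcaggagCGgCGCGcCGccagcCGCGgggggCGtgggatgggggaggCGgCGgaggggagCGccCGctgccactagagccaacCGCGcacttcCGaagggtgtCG
Acvr2b (GRCr8, chr8:128016513-128016812, plus strand): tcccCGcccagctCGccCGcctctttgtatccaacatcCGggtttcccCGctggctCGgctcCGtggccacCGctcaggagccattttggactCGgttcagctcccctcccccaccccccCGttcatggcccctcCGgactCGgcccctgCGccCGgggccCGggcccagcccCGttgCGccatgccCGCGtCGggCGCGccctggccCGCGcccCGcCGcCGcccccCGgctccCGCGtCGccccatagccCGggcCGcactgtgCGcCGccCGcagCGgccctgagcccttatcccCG
Smad1 (GRCr8, chr19:45417292-45417591, plus strand): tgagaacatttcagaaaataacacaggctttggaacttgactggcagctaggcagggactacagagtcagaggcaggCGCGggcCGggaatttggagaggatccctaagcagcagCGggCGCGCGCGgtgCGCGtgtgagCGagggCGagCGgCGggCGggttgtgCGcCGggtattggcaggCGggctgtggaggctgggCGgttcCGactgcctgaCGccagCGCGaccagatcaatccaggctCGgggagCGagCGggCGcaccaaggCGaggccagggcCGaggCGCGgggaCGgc

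The 300 bases hold 28 CpG at Grem1, 7 at Nodal, 49 at Inhbb, 31 at Acvr1c, 38 at Acvr2b and 32 at Smad1. CpG-rich promoters are thus found with and without the mark, and Nodal has a high-scoring peak over a CpG-poor start.

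Among the BMP ligands, 12 of 14 had a promoter peak. Gdf6, which shapes joints, skull and eye, had the highest score of the family. Its peak of 8640 bp (rn5 chromosome 5, 27786761 to 27795401) scored 672.2 (95% counting interval 649 to 696), rank 148 of the 4088 genes. The interval takes each score step of 0.206 as 1 sequenced tag, an assumption, and covers counting error only. The peak started 14 bp before the TSS and was centred in the only intron of the gene. A second peak of 2484 bp with a score of 135.7 ended 237 bp before the TSS. With peaks within 5000 bp joined, the Gdf6 domain spanned 39847 bp, of which 12 peaks covered 34721 bp, with a summed score of 1677.

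Gdf7, a signal of the roof plate of the spinal cord, had peaks on both sides of its TSS with a gap at the TSS itself. A peak of 3022 bp after the TSS scored 227.3 (214 to 241) and a peak of 2255 bp before it scored 121.7 (112 to 132). Both sides went on in further peaks, of 5090 bp (254.1) downstream and 5513 bp (243) upstream, and the joined domain spanned 19208 bp, with 17089 bp under 6 peaks. Gdf6 and Gdf7 also had the densest peaks of the family, with 77.8 and 75.2 score units per kb in their highest promoter peak, against medians of 38.6 over the 17 ligands and 30.0 over all 4088 genes.

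Bmp7, needed for kidney and eye, followed with a peak of 6595 bp in intron 1 (chromosome 3, 177013650 to 177020245) and a score of 301.4 (286 to 317). A separate peak of 591 bp with a score of 13.4 lay over its TSS. Bmp8a, known in the mouse for sperm production, had a peak of 5410 bp centred 112 bp before the TSS (chromosome 5, 144821047 to 144826457) with a score of 243 (229 to 257). Gdf10, a Bmp3-like ligand, had 6446 bp (chromosome 16, 8567009 to 8573455) and a score of 223 (209.9 to 237), centred in what the rn5 annotation gives as intron 14 of a Chat transcript. The intervals of Bmp8a, Gdf7 and Gdf10 overlap, so their order is not resolved by counting alone.

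Bmp2 and Bmp4, close relatives with wide roles in bone, heart and limb, had smaller peaks at the TSS. The peak of Bmp2 (3841 bp, chromosome 3, 132822005 to 132825846) scored 166.3 (155 to 178), and that of Bmp4 (3020 bp, chromosome 15, 24735745 to 24738765) scored 103.5 (94.7 to 113). Bmp4 is understated by the promoter rule. Its highest peak, 11786 bp with a score of 539.6 (519 to 561), lay upstream at 24740105 to 24751891 and ended 1380 bp before the TSS, outside the reach of 1000 bp. By any distance this was the widest peak of the family and the only one of at least 10000 bp.

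Scores fell off in the remaining BMP ligands. Bmp3, which counters bone formation, had a promoter peak of 2031 bp that scored 86.8, and another of 915 bp over the TSS that scored 35.7. Bmp5 (2465 bp, 76.7) and the oocyte factor Gdf9 (2540 bp, 76.5) were alike in score. Bmp6, an iron-regulating ligand of the liver, had 1469 bp and 41.5 (35.9 to 47.6), near the median of all genes. The heart ligand Bmp10 had 314 bp and 7.84 (5.55 to 10.8), outside the top 25%.

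The other ligand groups were split. Nodal, which sets the left-right axis of the embryo, had a peak of 4925 bp centred 20 bp before its TSS (chromosome 20, 32820398 to 32825323) with a score of 267.7 (253 to 283). The related Gdf3 had no peak closer than 8409 bp to its TSS. Both activin subunit genes were marked. Inhbb had a peak of 3152 bp upstream with a score of 150.2 (139 to 161) and another of 2995 bp in its intron with a score of 120.7 (111 to 131). Inhba had a peak of 3320 bp over the TSS with a score of 128.1 (118 to 139). Tgfb2 had 3237 bp and 109.7 (101 to 119), and Tgfb3 had only a peak of 150 bp whose edge lay 1517 bp from the TSS. Gdf11, which patterns the body axis, had 2043 bp and 71.8 (64.4 to 79.7), while the stress-induced Gdf15 had its nearest peak 3556 bp away. Gdf2, a circulating ligand made in liver, and the X-linked oocyte factor Bmp15 were the remaining ligands without a promoter peak.

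All 7 antagonists had a promoter peak in the top 25%. Lefty1, a family protein that blocks Nodal, had the widest promoter peak of all 45 genes, 8840 bp (chromosome 13, 104206756 to 104215596), with a score of 463.5 (445 to 483). Its neighbour Lefty2, whose peak ended 32718 bp before that of Lefty1 began, had 2469 bp and 79.0 (71.3 to 87.3). The Lefty1 peak thus scored far above that of Lefty2, with intervals that do not overlap. Grem1, the Gremlin of the limb bud, had 8460 bp over the TSS and a CpG island (chromosome 3, 111787033 to 111795493) with a score of 399.1 (382 to 417).

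Nog, which encodes Noggin, had a peak of 2950 bp that began 499 bp after the TSS and was centred at the end of this short gene, with a score of 128.7 (119 to 139). The next peak downstream had nearly the same score, 128.3, and the joined domain of 43860 bp was the longest of the family, but its 23 peaks covered only 13679 bp of it. Fst, which encodes the activin-binding Follistatin, had a peak of 2698 bp that began 19 bp after the TSS (107.5, 98.4 to 117) and another of 2230 bp upstream (62.3, 55.5 to 69.7). Chrd, which encodes Chordin, had 1620 bp centred in intron 4 and a CpG island, with a score of 69.3 (62.1 to 77.1).

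Among the receptors only Acvr1c, which encodes the type I receptor ALK7 for Nodal and some activins, had a promoter peak. It had 2675 bp in intron 1 (chromosome 3, 49459726 to 49462401) with a score of 93.4 (85.0 to 102), and 775 bp upstream with a score of 28.7 (24.1 to 33.9). Its neighbour Acvr1, a type I receptor of BMPs, had no peak assigned to it within 62162 bp. The type I receptor genes Bmpr1a and Bmpr1b had none assigned to them within 7160 and 62044 bp. Of the type II receptor genes, Acvr2a had none assigned to it within 115148 bp, and Bmpr2 had a peak of 196 bp whose edge lay 1768 bp upstream. Acvr2b had a peak of 1287 bp in intron 1 whose edge lay 1384 bp from the TSS, with a score of 32.6.

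The Smad genes had the least mark. Smad6 alone had a promoter peak, of the smallest width in the list, 150 bp, with a score of 3.09 (1.73 to 5.10), rank 3889 of 4088. Smad7, the other inhibitory Smad, had no peak edge closer than 5556 bp. The receptor-regulated Smads Smad1, Smad2, Smad3 and Smad5 had no peak assigned to them closer than 17032, 14162, 19707 and 19008 bp. Smad4, the common partner, had none assigned to it closer than 21091 bp. On the map of peaks around the TSS, the rows of Smad1, Smad2, Smad3, Smad4 and Smad5 are empty over the whole 10000 bp on either side.

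Some genes lay close to the limit of 1000 bp. Just inside it were Bmp10, with a peak edge 790 bp from the TSS, Chrd with 534 bp and Nog with 499 bp. Just outside were Gdf2 with 1033 bp, the upstream domain of Bmp4 with 1380 bp, Acvr2b with 1384 bp and Tgfb3 with 1517 bp. Of the 19 genes without a promoter peak, 1 could lie within reach of a peak assigned to another gene. This was Tgfb1i1, whose TSS has 2 possible positions, since its 1 peak does not fix the strand, and the position that has such peaks, of Slc5a2, is not on the strand that the reference gives.

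**Figure D2:**
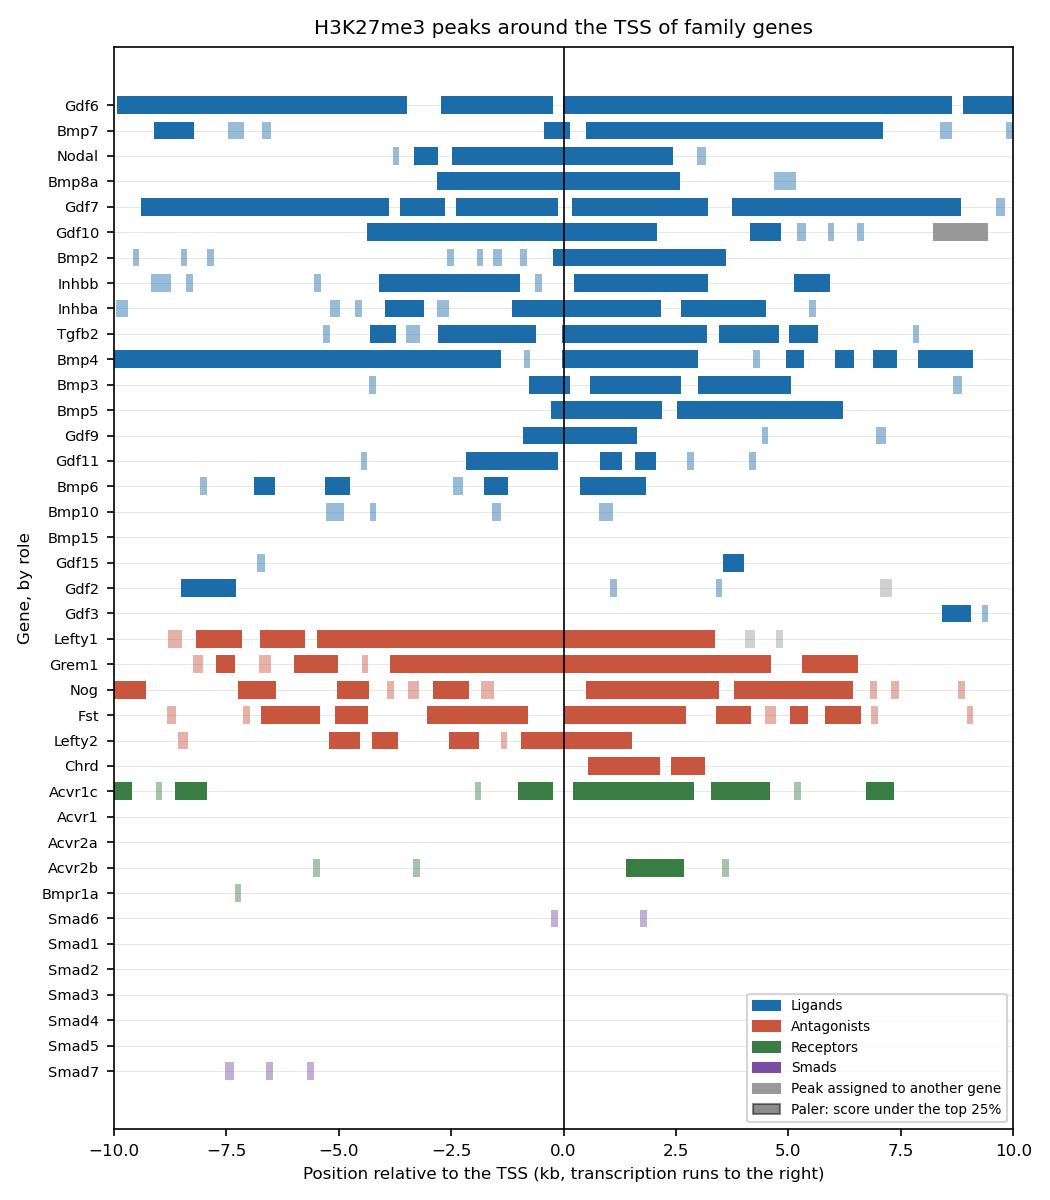
H3K27me3 peaks within 10 kb of the TSS in family genes whose strand the peak list fixes, turned so that transcription runs to the right, coloured by role and paler where the score is under the top 25%. Most ligands and antagonists have wide peaks on one or both sides of the TSS. The ligands Bmp10, Gdf2, Gdf3 and Gdf15 have only short or distant peaks, and the row of Bmp15 is empty. The rows of most receptors and Smads are empty or hold short pale peaks.

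The marked genes differed in how the peaks met the TSS. Of the 24 genes with a top 25% promoter peak, 15 had the TSS inside a peak (62.5%), against 46.9% of the 2963 other genes with such a peak. In 6 genes, among them Acvr1c, Fst, Gdf7, Gdf11 and Inhbb, peaks stood on both sides of a gap at the TSS, against 33.7% of the other genes. The gap was 318 bp at Gdf7, 449 bp at Acvr1c, 709.5 bp at Inhbb, 816 bp at Fst and 934 bp at Gdf11. At Inhbb the gap is bounded upstream by a further small peak, of 150 bp with a score of 4.33, and not by the peak of 3152 bp. In Bmp6, Chrd and Nog the promoter peak lay downstream only.

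The mark of the family was fullest just inside the gene. A peak covered the position 1000 bp after the TSS in 23 of the 24 genes (95.8%), against 74.3% of 2713 other genes with a top 25% promoter peak and a TSS fixed by the list. At 2000 bp after the TSS the share was 83.3% of the family genes, against 54.5% of the other genes. Upstream, at 1000 bp before the TSS, it was 58.3% of the family genes, against 67.1% of the other genes, and at 2000 bp before the TSS 54.2%, against 47.3%. Family and other genes thus differed more after the TSS than before it at these distances. These shares were not tested. In 15 of the 24 genes the highest promoter peak was centred in an intron, in 3 in an exon and in 2 in the authors' promoter-TSS class. At Gdf10 the intron is that of the Chat transcript and lies before the TSS. A count that takes only the promoter-TSS class finds 10 of the 45 genes, most of them through a peak that is not the highest of the gene.

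**Figure D3:**
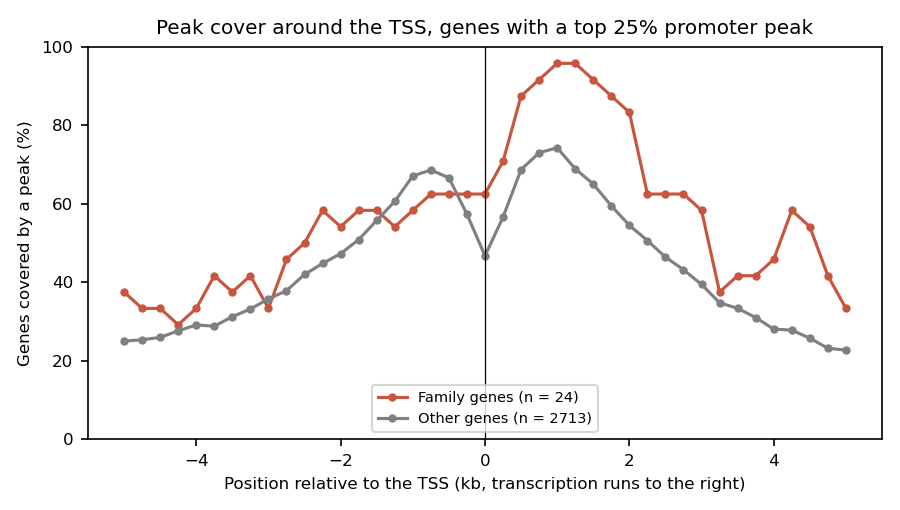
Share of genes covered by any H3K27me3 peak at positions every 250 bp around the TSS, for the 24 family genes and for 2713 other genes with a promoter peak in the top 25% of scores. The line of the family genes peaks at 95.8% at 1000 bp after the TSS, where the other genes are at 74.3%, and it lacks the dip to 46.7% that the other genes have at the TSS.

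Promoters with and without the mark overlapped in CpG content over nearly their whole range. Over the 300 bases, promoters of 18 family genes with a promoter peak held a median of 24 CpG (2 to 49), and those of 15 without held a median of 17 (1 to 52). Receptor and Smad promoters had a median of 31 CpG in 11 genes. Unmarked Smad genes were among the CpG-richest, with 52 at Smad2, 40 at Smad7, 34 at Smad3 and 32 at Smad1. At the TSS that RefSeq gives, others were among the poorest, with 1 at Smad4 and 2 at Smad5. Whether other starts of these genes are richer in CpG was not tested. Marked ligands spread as widely, with 2 at Gdf9, 3 at Inhba, 5 at Bmp5, 6 at Bmp3 and 7 at Nodal, but 49 at Inhbb, 39 at Gdf10 and 37 at Gdf11. The median was 17 in all genes of the list with a promoter peak, 18 in those without, and 12 in all protein-coding genes of the table.

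Within the marked genes, promoters whose TSS lay outside every peak were richer in CpG than those whose TSS lay inside a peak. The 7 genes with a gap or a downstream peak held 18 to 49 CpG, with a median of 34. The 10 genes with the TSS inside a peak held 2 to 39, with a median of 13. The ranges overlap, and the lowest value outside peaks, 18 at Bmp6, exceeds 5 of the 10 inside. In the other genes with a top 25% promoter peak the medians were 23 in 1098 genes with the TSS outside and 15 in 957 with the TSS inside. Width differed alongside. Over these family genes with a sequence, the widest promoter peak had a median of 2675 bp in the 7 with the TSS outside and 3279 bp in the 10 with the TSS inside. In the other genes it was 1395 bp with the TSS outside and 3589 bp with the TSS inside. The part of width in the result was not tested. Of the sequences above, Inhbb and Acvr1c have the TSS outside every peak, and Nodal and Grem1 have it inside. Nodal holds 7 CpG, but Grem1 holds 28, above the median of 13 of its group.

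**Figure D4:**
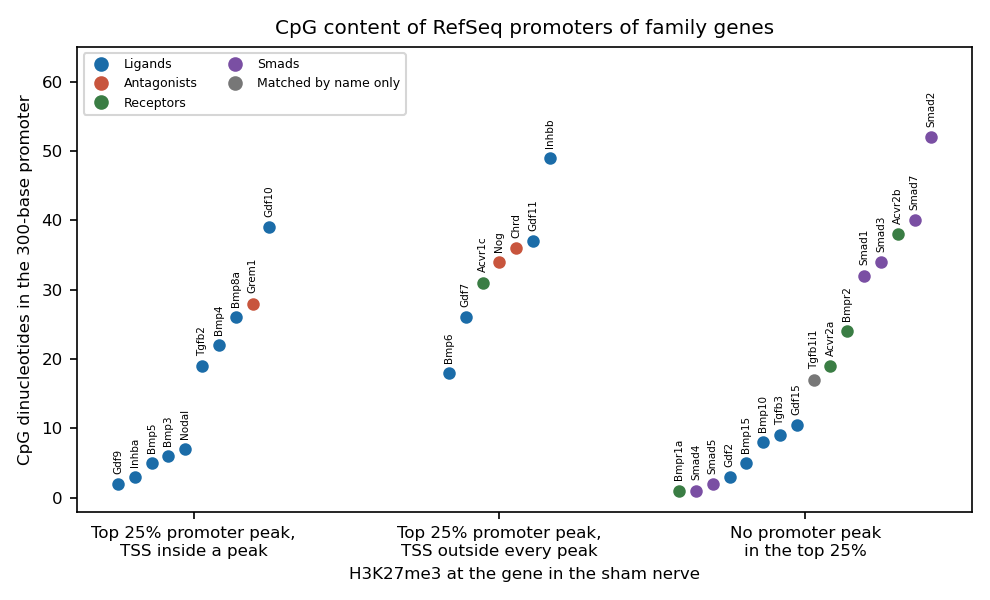
Number of CpG dinucleotides in the 300-base RefSeq promoter (GRCr8) of the 33 family genes with a sequence, in genes with a top 25% promoter peak and the TSS inside a peak, in those with the TSS outside every peak, and in genes without such a promoter peak. The middle group lies between 18 and 49, and the others reach down to 2 and 1.

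Among other genes of the pathway, in a list sorted by role, the antagonist group and the latency and matrix group were marked more often than intracellular regulators. Peaks name 58 of the 73 genes, and 39 of the 58 had a promoter peak (67.2%), where the share of all named genes is 38.4% as above. The antagonist group of the list had 14 of 16, led by the bone Wnt and BMP antagonist Sost (371.7, 6285 bp) and the follistatin-like Fstl4 (225.7). Its count also takes in the tolloid-like proteases Tll1 (14.4) and Tll2 (45.8). Latency and matrix genes had 7 of 9, led by Ltbp2 (198.6) and Ltbp4 (148.9). Other ligands of the superfamily had 3 of 5, Gdnf (480.6), Artn (118) and Mstn (23.5). Receptors and co-receptors had 4 of 7, above the 38.4% of all named genes, where the receptors of the family had 1 of 7. They were led by the BMP co-receptor genes Hfe2 (185.6) and Rgma (165.2), while Tgfbr2, Tgfbr3 and Acvrl1 had none. Intracellular regulators had 3 of 8, near the share of all named genes, with Foxh1 highest at 8.25 and Zfyve9 next at 7.84. In the top 25% they had 0. Also above the share of all named genes, 8 of 13 target genes had a promoter peak. Among them were the homeobox genes Msx1 (674.5, 12050 bp) and Msx2 (273.3, 6035 bp), and the general BMP response genes Id1, Id2 and Id4 had none and Id3 had 150 bp with a score of 3.3.

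Ligands stayed above the share of all named genes under each of 8 definitions of a promoter peak. Receptors and Smads stayed below that share, in part by a small margin. Where the peak had to contain the TSS, 12 of 22 ligands, 3 of 7 antagonists, 0 of 7 receptors and 0 of 7 Smads were counted, against 13.8% of all named genes. With a reach of 5000 bp the counts were 20, 7, 3 and 1 in the same order of roles, against 61.9%. With scores at or above the median they were 17, 7, 1 and 0, against 32.7%. With peaks of at least 2000 bp they were 15, 5, 1 and 0, against 15.2%. With peaks within 5000 bp joined they were 17, 7, 2 and 1, against 40.3%. Where the centre had to lie in the authors' promoter-TSS class, they were 7, 1, 1 and 1, against 18.4%, and here the antagonists too lay below the background. For receptors and Smads the counts are small, and 1 of 7 (14.3%) is near 15.2% and 18.4%. Over all protein-coding genes, named or not, the shares were lower, 25.5% with the reach of 5000 bp and 16.7% with joined peaks. They were 6.63% with peaks of at least 2000 bp and 7.65% in the promoter-TSS class. Receptors, also with Acvr1b that no peak names, did not lie below these shares, nor did Smads in the last. The direction thus depends on the background.

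**Figure D5:**
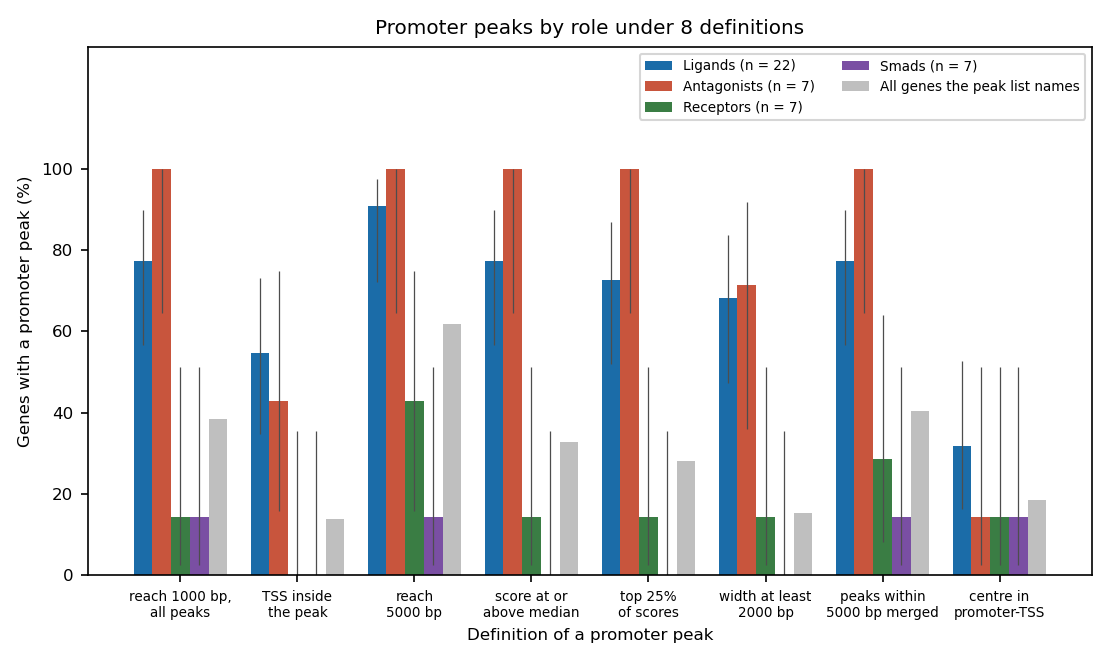
Share of ligands, antagonists, receptors and Smads with a promoter peak, and of all 10647 genes that the list names, under 8 definitions, with 95% Wilson intervals on the roles. Ligands lie above the grey bar of all genes in each definition, and Smads lie below it in each.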

How the data were processed

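The submitters' processing notes name CASAVA 1.8.2, Bowtie and HOMER. Per the file headers, the combined H3K27me3 sham peak list was annotated with HOMER against rn5. How peaks were called, how libraries were joined and what the input served for are steps that these sources do not give. The score of each of the 129550 peaks was deposited by the authors without a stated scale, and widths and distances to the TSS were deposited in bp. All 97601 scores under 10 were whole multiples of 0.206 within 0.005. Library depth is unknown.

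The TSS position and strand of a gene were recovered from the distances of its peaks. Roles, lists and alternatives were chosen with earlier results of these data known. All 45 genes matched the GRCr8 gene table by symbol. It served for names and neighbours, and sequences came from the RefSeq promoter table. Values are counts, medians, 95% Wilson intervals and exact Poisson intervals, with no test. Counts take in every gene. Full values are given for genes with a top 25% promoter peak and for each marked receptor and Smad. Some genes, though counted, are not reported here by name or drawn. Steps were tested on simulated data. Python 3.11.15, pandas 2.3.3 and scipy 1.17.1 were used.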

Additional observations from a re-analysis of the deposited data

How the results depend on the processing

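No paired analysis was possible because the peak list is pooled over libraries, so that replicates could be neither blocked nor left out. Over 7 alternative definitions, 37 values stayed within 1.5 times the reported value and 19 did not. With the TSS required inside the peak, the counts were 15 family genes, 3 antagonists, 0 receptors, 0 Smads and 13 other pathway genes. A reach of 5000 bp gave 3 receptors, adding Acvr2b and Bmpr2. Smads fell to 0 with scores at or above the median, with the top 25% of scores and with peaks of at least 2000 bp, the last of which gave 15 other pathway genes. Joining peaks within 5000 bp gave 2 receptors and, for ligands, a median width of 10477 bp and a median score of 251, since joined peaks are longer and their scores are summed. With the centre in the promoter-TSS class there were 10 family genes, 7 ligands, 1 antagonist and 20 other pathway genes, and ligand medians of 591 bp and a score of 13.4.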

Other observations

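Away from promoters, 807 peaks were assigned to family genes, and 185 of them (22.9%) were in the top 25% of scores, against 23.1% of all peaks outside promoters. The highest beyond those given above was at Gdf6 (356.6, 8018 bp), centred 15263 bp after the TSS in exon 2. Gdf9 had a broad peak (5786 bp, score 210.0) centred 33179 bp after its TSS, higher than its own promoter peak of 76.5. Bmpr1a, without a promoter peak, was the nearest gene of peaks of 3325 bp (119) and 3006 bp (91.6), centred at -47129 and -57972 bp from its TSS. The rn5 annotation puts both in intron 14 of the Chat transcript that it also gives for the Gdf10 promoter peak. With promoter peaks included, the Smad genes together were nearest to 99 peaks, of which 16 (16.2%) were in the top 25%, and the antagonists to 295, of which 87 (29.5%) were, against 25.1% of all peaks.

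The gene table holds 53 protein-coding genes that match the naming rule, and 8 of them are named by no peak: the ligands Tgfb1, Gdf1, Gdf5, Inha and Bmp8b, the receptor gene Acvr1b, Smad9 and the kinase gene Bmp2k. Whether the annotation that the authors used holds these genes is not known. Of the protein-coding genes next to these 8 in the table, Anxa3, beside Bmp2k, had a promoter peak (26.8), and the others had none.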
